A study of Homo sapiens with 12 samples.

Results

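The tripartite motif (TRIM) genes encode a family of proteins most of which are ubiquitin ligases. Members were taken by name, as symbols made of TRIM and a number, with a mean of at least 1 CPM (a gene's count scaled to the library's total) in any group. The table held 66 such symbols among 24302 features, of which 41 were members and 25 lay under the limit, 12 of these with no counts. All 41 members passed the filter on low counts used for testing. The member nearest the limit was TRIM46, with a highest group mean of 1.49 CPM, and the nearest left out were TRIM9 at 0.98 CPM and TRIM74 at 0.80 CPM.

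A TRIM protein usually carries a RING finger, which binds a ubiquitin-loaded E2 enzyme, then B-box zinc fingers and a coiled coil through which the proteins pair. The end of the protein differs between subfamilies and sets what is bound: a SPRY domain, a PHD finger with a bromodomain, NHL repeats and others. Many SPRY members are induced by interferon and act on viruses or on the sensors that detect viral RNA, while the PHD and bromodomain members act on chromatin. Members without a RING bind other TRIM proteins or act as adaptors.

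The libraries came from cultured KYSE150 cells, a widely used line derived from a squamous carcinoma of the human esophagus. The 4 groups of 3 libraries carried GFP alone, GFP fused to TFAP2β of normal sequence (WT), or the same fusion with the intrinsically disordered region IDR3 changed or removed, labelled Mut_IDR3 and ΔIDR3. TFAP2β is an AP-2 transcription factor, and the series describes both altered forms as deficient in phase separation. The comparisons ask which TRIM genes change with the factor and whether the change depends on that region. The promoter of the constructs and whether each group was a clone or a pool are not given in the sources used here. Replicates are not said to be separate cultures, so the p-values cover the spread among these libraries, which may be technical.

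TFAP2B, the gene of the expressed factor, was listed at 0, 0.28 and 0.09 CPM in the GFP libraries and at 274, 225 and 308 CPM in WT. It stood at 697, 733 and 690 CPM in Mut_IDR3 and at 736, 761 and 643 CPM in ΔIDR3, which is 1.32 ± 0.12 and 1.33 ± 0.12 above WT on the log2 scale (log2 fold change ± SE of the edgeR fit, adjusted p = 5.11e-07 and 3.07e-07). Every contrast of a mutant with WT therefore also compares different amounts of TFAP2B mRNA, whose part in the results was not tested. Library totals were 30652851 to 43464956 counts, and the share of mitochondrially encoded counts was 9.92% to 10.7% in GFP, 5.38% to 6.09% in WT and 7.67% to 8.63% in the mutants. The 10 squamous markers summed to 4602 to 7573 CPM, with at least 9 of 10 above 1 CPM in each group. The 6 fibroblast markers summed to 2.63 to 6.30 CPM. Of 9 leukocyte and endothelial markers, PTPRC and PECAM1 had no counts and CD68 alone passed 1 CPM, with 70.7 to 74.8 CPM in GFP, 78.7 to 97.3 in WT, 50.1 to 56.2 in Mut_IDR3 and 49.8 to 50.9 in ΔIDR3.

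Promoter stretches are shown for members whose group the motifs concern. The interferon-stimulated response element (ISRE) is the binding sequence of the interferon-activated complexes, searched here on both strands as GAAA, 2 bases of any kind and GAAA. RefSeq windows of GRCh38.p14, from 250 bases before to 50 bases after a transcription start, existed for 30 members, with 47 windows. No window was at hand for TRIM4, TRIM8, TRIM11, TRIM13, TRIM22, TRIM24, TRIM27, TRIM28, TRIM29, TRIM35 and TRIM45. An ISRE match lay in 9 of the 30 members, against 3.90% of 9946 tested genes with a window and 4.38% of 27305 genes in all. It was in 6 of 9 members from the interferon-induced list and in 3 of the 21 others (TRIM2, TRIM16 and TRIM44). The 6 are printed from 5′ to 3′ along the gene, with the match in capitals. Those of TRIM21 lie after the start, the others before it.
TRIM21, chr11:4393663-4393692, minus strand: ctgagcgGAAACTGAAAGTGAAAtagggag
TRIM14, chr9:98119223-98119282, minus strand: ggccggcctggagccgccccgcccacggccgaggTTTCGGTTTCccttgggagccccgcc
TRIM26, chr6:30213563-30213622, minus strand: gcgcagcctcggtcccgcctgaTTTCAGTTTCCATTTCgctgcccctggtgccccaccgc
TRIM69, chr15:44736441-44736500, plus strand: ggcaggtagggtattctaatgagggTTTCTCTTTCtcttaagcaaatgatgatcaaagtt
TRIM5, chr11:5685075-5685134, minus strand: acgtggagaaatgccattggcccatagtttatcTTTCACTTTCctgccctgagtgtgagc
TRIM34, chr11:5624886-5624945, plus strand: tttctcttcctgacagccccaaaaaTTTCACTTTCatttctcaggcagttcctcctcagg

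TRIM21 and TRIM26 each hold 2 overlapping matches, on the plus strand of the gene in TRIM21 and on the minus strand in TRIM26. TRIM5 and TRIM34 hold the same 10 letters. The gamma-activated sequence, searched as TTCNNNGAA on both strands (N is any base), was in 5 of 30 members and in 8.39% of the tested genes. The AP-2 motif, the palindrome GCCNNNGGC, was in 20 of 30 members, against 38.4% of tested genes. Members and genes with several windows count if any window holds the motif. A match is a run of letters, not a measured binding site. AP-2 matches are shown for 4 of the 5 members that fell most with WT, the other being TRIM22, which has no window. All 4 lie before the start of genes on the minus strand. The motif was not confined to falls: of the members that rose, TRIM7, TRIM14, TRIM26, TRIM32, TRIM47 and TRIM62 hold a match too. The TRIM33 stretch holds a further match, GCCAAAGGC at 240 bases before the start, left in lower case.
TRIM23, chr5:65624337-65624396: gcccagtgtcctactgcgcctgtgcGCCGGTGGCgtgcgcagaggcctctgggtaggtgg
TRIM33, chr1:114511385-114511444: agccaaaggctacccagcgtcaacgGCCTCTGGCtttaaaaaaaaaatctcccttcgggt
TRIM37, chr17:59106977-59107036: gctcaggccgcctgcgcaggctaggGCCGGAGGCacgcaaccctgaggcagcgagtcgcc
TRIM66, chr11:8683267-8683326: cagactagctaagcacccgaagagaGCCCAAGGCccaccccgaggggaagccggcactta

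The family as a whole summed to 2295 to 2353 CPM in GFP, 2365 to 2605 in WT, 2522 to 2576 in Mut_IDR3 and 2581 to 2656 in ΔIDR3. Such sums, and the overlaps of groups given below, are in raw CPM. The fold changes use TMM scaling between libraries, under which WT stands somewhat higher beside GFP. TRIM4, for example, had means of 24.01 CPM in GFP and 23.99 in WT but a log2 change of 0.09. Narrow overlaps or gaps between WT and another group can therefore differ on the tested scale. Per kilobase of exon, TRIM28 stood first with a mean over groups of 142 CPM per kb, followed by TRIM16 with 34.6, TRIM26 with 26.4, TRIM27 with 21.5 and TRIM29 with 19.8 CPM per kb. TRIM28 alone gave 16.9% to 17.8% of the family's counts in GFP and 23.5% to 26.0% in the other 9 libraries. The lowest member was TRIM46, at 0.226 CPM per kb. With 10 members, chromosome 11 held the most.

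With WT TFAP2β, 17 members rose against GFP, 13 fell and 11 did not pass the test, which is 73.2% called, where 54.9% of all 14792 tested genes were called (27.7% higher and 27.1% lower, edgeR quasi-likelihood test at a Benjamini-Hochberg adjusted p under 0.05). Unlike the members, the tested genes include some under 1 CPM in every group, so such shares, here and below, compare genes of unlike levels. The members' median log2 change was -0.07 and that of all tested genes -0.01. The steepest rises were those of TRIM47 and TRIM21, both above 2-fold, and 3 members fell by more than 2-fold, TRIM22, TRIM66 and TRIM23. In bulk RNA, fewer cells with a transcript and less of it per cell cannot be told apart.

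**Figure D1:**
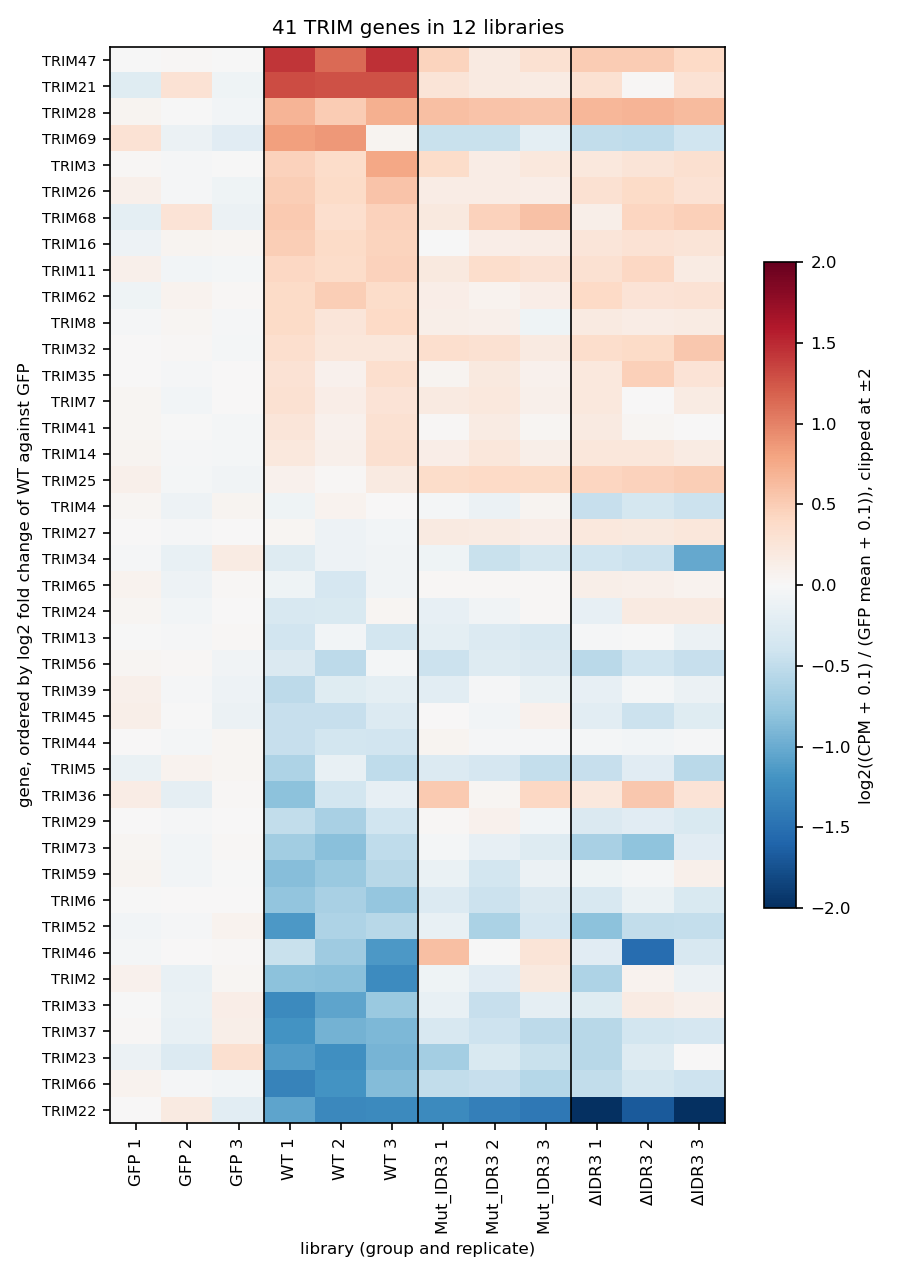
Each cell gives a library's level of a TRIM gene as log2 of CPM plus 0.1 over the GFP mean plus 0.1, with red above and blue below the GFP mean, and genes ordered by the change of WT against GFP. TRIM47 and TRIM21 are dark red in the 3 WT libraries, TRIM28 is red in all 9 libraries with a construct, and TRIM22 is blue in all 9.

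Counts by subfamily rest on small sets, and over all tested genes 27.7% were higher and 27.1% lower with WT. Of 19 SPRY members with a RING, 11 rose with WT, 3 fell and 5 did not pass, with a median log2 change of 0.31. Removing the GC trend, as described below, ended the rises of TRIM7, TRIM25, TRIM35, TRIM62 and TRIM68 and the fall of TRIM5. It also called TRIM39 and TRIM65 lower. Of the 5 with a MATH, ARF, filamin or transmembrane end, 3 fell (TRIM23, TRIM37 and TRIM59) and 2 did not pass (TRIM13 and TRIM45), with a median of -0.62. With the GC trend removed TRIM23 and TRIM59 were not called, TRIM13 was called higher and TRIM45 lower. Of the 3 NHL members, TRIM3 and TRIM32 rose by 0.64 and 0.35 and TRIM2 fell by 0.88 on the log2 scale, its change being -0.44 with the GC trend removed (adjusted p = 0.0405). Of 4 members with no further domain, TRIM8 rose, TRIM52 and TRIM73 fell and TRIM56 did not pass. The call of TRIM73 was lost without GFP replicate 3 or WT replicate 1 or 2 (adjusted p of 0.0505 to 0.0628). The change of TRIM8 became 0.07 with the GC trend removed (adjusted p = 0.338). Of the 5 without a RING, TRIM14 and TRIM16 rose and TRIM29, TRIM44 and TRIM66 fell. The COS-box members TRIM36 and TRIM46, which bind microtubules, did not pass. Removing the GC trend also ended the calls of TRIM14 and TRIM44 and called TRIM46 and TRIM56 lower. The difference between subfamilies was not tested.

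GC content moved with these changes. The members that rose with WT had a median GC content of 53.0% in their longest transcript, those that fell 43.2% and those not called 46.6%. Over the 41 members GC content and the log2 change had a Spearman correlation of 0.51, the same as over 12724 tested genes, where all points share the same libraries. A fit with the trend of GC content removed from each library called 11 members higher and 14 lower. It kept 10 of the 17 rises and 9 of the 13 falls. Lost were the rises of TRIM7, TRIM8, TRIM14, TRIM25, TRIM35, TRIM62 and TRIM68 and the falls of TRIM5, TRIM23, TRIM44 and TRIM59. Added were a rise of TRIM13 and falls of TRIM39, TRIM45, TRIM46, TRIM56 and TRIM65. For genes described one by one, values without the GC trend are given beside part of the results. An absent value does not mean an unchanged result. Where not given below, the WT rises of TRIM47, TRIM21 and TRIM3 were 1.07, 1.14 and 0.45 in that fit. The falls of TRIM22, TRIM66, TRIM37, TRIM6 and TRIM52 were -0.81, -1.26, -0.69, -0.49 and -0.58, and all of these changes stayed called. TRIM56 went from -0.18 to -0.45 with WT.

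**Figure D2:**
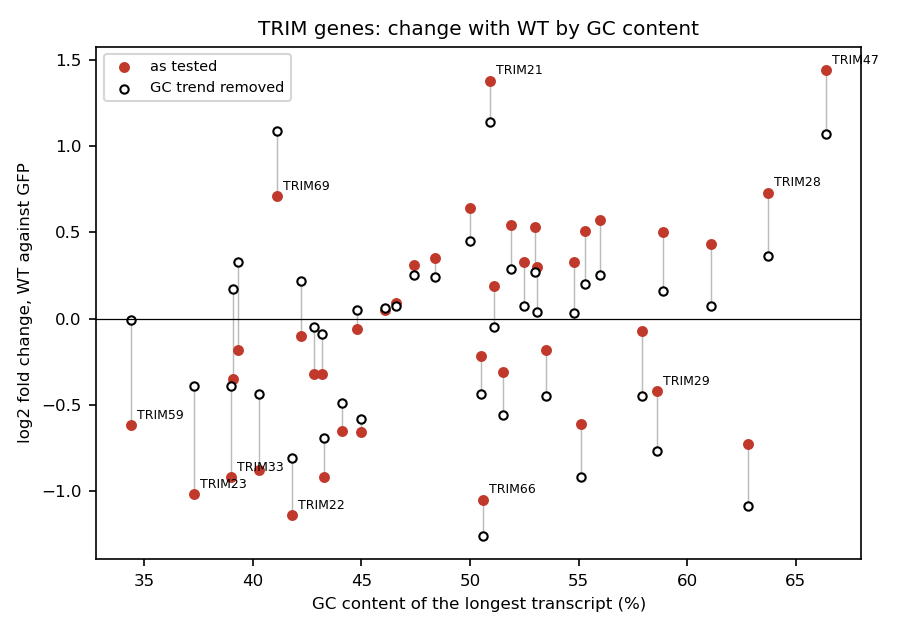
Points give, for each of 41 TRIM genes, GC content in percent against the log2 fold change of WT against GFP, filled as tested and open with the GC trend removed, joined by a grey line. The open points of the GC-poor members TRIM59 and TRIM23 lie nearer 0 than the filled ones. Other GC-poor members differ: TRIM69 moves from 0.71 to 1.09, and TRIM13 crosses 0, from -0.18 to 0.33. TRIM47 and TRIM21 stay above 1 on both.

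TRIM21, a cytosolic receptor for antibody-coated viruses and an interferon-induced ligase, lies on chromosome 11 at 4384897 to 4393696 (GRCh38, GENCODE 29, minus strand). It had 11.1, 15.9 and 12.3 CPM in GFP, 32.5, 31.7 and 31.7 in WT, 15.6, 14.9 and 14.7 in Mut_IDR3 and 16.1, 13.3 and 16.1 in ΔIDR3. All 3 WT libraries lay above every other library, and the mutants overlapped GFP. The rise with WT was 1.38 ± 0.12 on the log2 scale (adjusted p = 3.22e-07). Against WT, Mut_IDR3 was lower by -1.15 ± 0.12 and ΔIDR3 by -1.15 ± 0.12 (adjusted p = 3.24e-06 and 1.88e-06). Neither mutant was called against GFP, at 0.22 ± 0.12 and 0.23 ± 0.12 (adjusted p = 0.221 and 0.191).

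TRIM47, a SPRY-type ligase on chromosome 17 (75874161 to 75878575), has the highest GC content of the members, 66.4%. It had 23.7, 24.2 and 23.6 CPM in GFP and 64.1, 52.6 and 65.6 in WT, with no overlap. It had 32.6, 26.9 and 29.4 CPM in Mut_IDR3 and 34.0, 33.8 and 31.4 in ΔIDR3, all between the GFP and the WT libraries. The change with WT was 1.44 ± 0.10 (adjusted p = 1.59e-08). Mut_IDR3 was 0.33 ± 0.10 and ΔIDR3 0.48 ± 0.09 above GFP (adjusted p = 0.024 and 0.00155). The call in Mut_IDR3 was lost, with adjusted p of 0.0507 to 0.098, without any of GFP replicates 1, 2 and 3 or Mut_IDR3 replicates 1 and 3. With the GC trend removed it was 0.21 (adjusted p = 0.0875). Against WT the mutants were lower by -1.11 ± 0.09 and -0.96 ± 0.09 (adjusted p = 3.41e-07 and 9.09e-07), the latter -0.63 with the GC trend removed and still called.

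TRIM69, a ligase that restricts vesicular stomatitis virus, stood at 5.79, 4.33 and 4.03 CPM in GFP and at 8.36, 8.64 and 4.88 in WT. WT replicate 3 lay below GFP replicate 1, so the groups overlapped. Mut_IDR3 had 3.42, 3.45 and 4.13 CPM and ΔIDR3 3.31, 3.30 and 3.57. TRIM69 rose by 0.71 ± 0.21 with WT (adjusted p = 0.00911), and by 1.09 with the GC trend removed. It was lower than WT by -1.05 ± 0.21 in Mut_IDR3 and -1.18 ± 0.21 in ΔIDR3 (adjusted p = 0.000946 and 0.000274).

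TRIM26 and TRIM14 are interferon-linked members of high level, the former a ligase and the latter an adaptor of mitochondrial antiviral signalling that has no RING. TRIM26 had 104, 95.6 and 91.7 CPM in GFP, 137, 127 and 144 in WT, 108, 108 and 107 in Mut_IDR3 and 120, 126 and 118 in ΔIDR3. WT lay above all other groups. The rise with WT was 0.57 ± 0.06 (adjusted p = 1.68e-06), and 0.25 with the GC trend removed (adjusted p = 0.000477). TRIM26 was lower in Mut_IDR3 than in WT by -0.41 ± 0.06 (adjusted p = 7.39e-05), or by -0.23 with the GC trend removed. In ΔIDR3 it was lower than WT by -0.24 ± 0.06 (adjusted p = 0.0037), which turned to 0.01 with the GC trend removed (adjusted p = 0.906), and higher than GFP by 0.33 ± 0.06 (adjusted p = 0.000909). TRIM14 rose by 0.30 ± 0.06 with WT (adjusted p = 0.000869), which became 0.04 with the GC trend removed (adjusted p = 0.555).

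TRIM25, the ligase that puts ubiquitin on the RNA sensor RIG-I, was higher in the mutants than in WT. It had 102, 92.2 and 90.5 CPM in GFP and 101, 96.5 and 107 in WT, which overlap in raw CPM. The Mut_IDR3 libraries had 122, 125 and 123 CPM and those of ΔIDR3 128, 131 and 133, all above WT. Against GFP the changes were 0.40 ± 0.06 in Mut_IDR3 and 0.47 ± 0.06 in ΔIDR3 (adjusted p = 0.000434 and 3.11e-05). Against WT they were 0.21 ± 0.06 and 0.29 ± 0.06 (adjusted p = 0.0073 and 0.000644), the former 0.34 with the GC trend removed. WT itself was called 0.19 ± 0.06 above GFP (adjusted p = 0.0119), a call lost without GFP replicate 3 or WT replicate 3 (adjusted p of 0.0519 to 0.0565), in a fit of only these 2 groups (adjusted p = 0.0573) and with the GC trend removed, where it was -0.05 (adjusted p = 0.427).

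A cluster on chromosome 11 holds TRIM6, TRIM34, TRIM5 and TRIM22, of which TRIM5, TRIM6 and TRIM22 fell with WT and TRIM34 did not pass (-0.06 ± 0.17, adjusted p = 0.8). TRIM5 and TRIM22 overlap on opposite strands, and TRIM6 and TRIM34 share a read-through gene, so their reads are uncertain because no source used here gives the strand setting of the counting. TRIM22, an interferon-induced restriction factor at 5689689 to 5737089, had 6.03, 6.78 and 5.19 CPM in GFP and 2.83, 2.40 and 2.42 in WT. It had 2.41, 2.27 and 2.17 CPM in Mut_IDR3 and 0.671, 1.81 and 0.763 in ΔIDR3. GFP lay above all other libraries, and the 3 ΔIDR3 libraries below all others. TRIM22 fell against GFP, by -1.14 ± 0.28 in WT, -1.37 ± 0.28 in Mut_IDR3 and -2.47 ± 0.30 in ΔIDR3 (log2 scale, adjusted p = 0.00276, 0.00431 and 3.12e-05). ΔIDR3 was below WT by -1.32 ± 0.30 (adjusted p = 0.00165).

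TRIM5, which restricts retroviral capsids, had 27.6, 31.7 and 31.1 CPM in GFP, 19.7, 27.3 and 21.2 in WT, 24.9, 23.8 and 21.7 in Mut_IDR3 and 21.8, 25.8 and 20.7 in ΔIDR3. GFP was highest in raw CPM, narrowly above WT replicate 2, with the other groups overlapping each other. The change was -0.32 ± 0.12 in WT (adjusted p = 0.0299), -0.34 ± 0.12 in Mut_IDR3 (adjusted p = 0.0508) and -0.39 ± 0.12 in ΔIDR3 (adjusted p = 0.0206). The WT call was lost without GFP replicate 2 or 3 or WT replicate 1 or 3 (adjusted p of 0.0899 to 0.137) and with the GC trend removed (-0.09, adjusted p = 0.479). The ΔIDR3 call was lost without GFP replicate 2 or 3 or ΔIDR3 replicate 1 or 3 (adjusted p of 0.0558 to 0.0751).

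TRIM6, which builds free ubiquitin chains in interferon signalling, had 64.0, 64.8 and 65.2 CPM in GFP, 37.3, 41.02 and 38.0 in WT, 53.6, 47.8 and 52.7 in Mut_IDR3 and 51.9, 58.7 and 52.5 in ΔIDR3. WT was lowest and GFP highest, with both mutants between them. It fell by 0.65 (SE 0.07) with WT (adjusted p = 1.49e-06), by 0.31 (SE 0.07) with Mut_IDR3 (adjusted p = 0.00562) and by 0.24 (SE 0.07) with ΔIDR3 (adjusted p = 0.0153, and 0.0506 without ΔIDR3 replicate 3). Both mutants were above WT, by 0.34 ± 0.07 and 0.41 ± 0.07 (adjusted p = 0.000996 and 0.000133).

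TRIM34, a close relative of TRIM5, had 8.94, 8.22 and 10.2 CPM in GFP, 7.62, 8.47 and 8.67 in WT, 8.61, 6.69 and 7.13 in Mut_IDR3 and 6.86, 6.76 and 4.45 in ΔIDR3. ΔIDR3 lay below GFP and WT without overlap. The change of ΔIDR3 was -0.59 ± 0.17 against GFP (adjusted p = 0.0164) and -0.53 ± 0.17 against WT (adjusted p = 0.0149). Both calls were lost without ΔIDR3 replicate 3 (adjusted p = 0.0562 and 0.0555), and the former also without GFP replicate 3 (adjusted p = 0.0644).

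**Figure D3:**
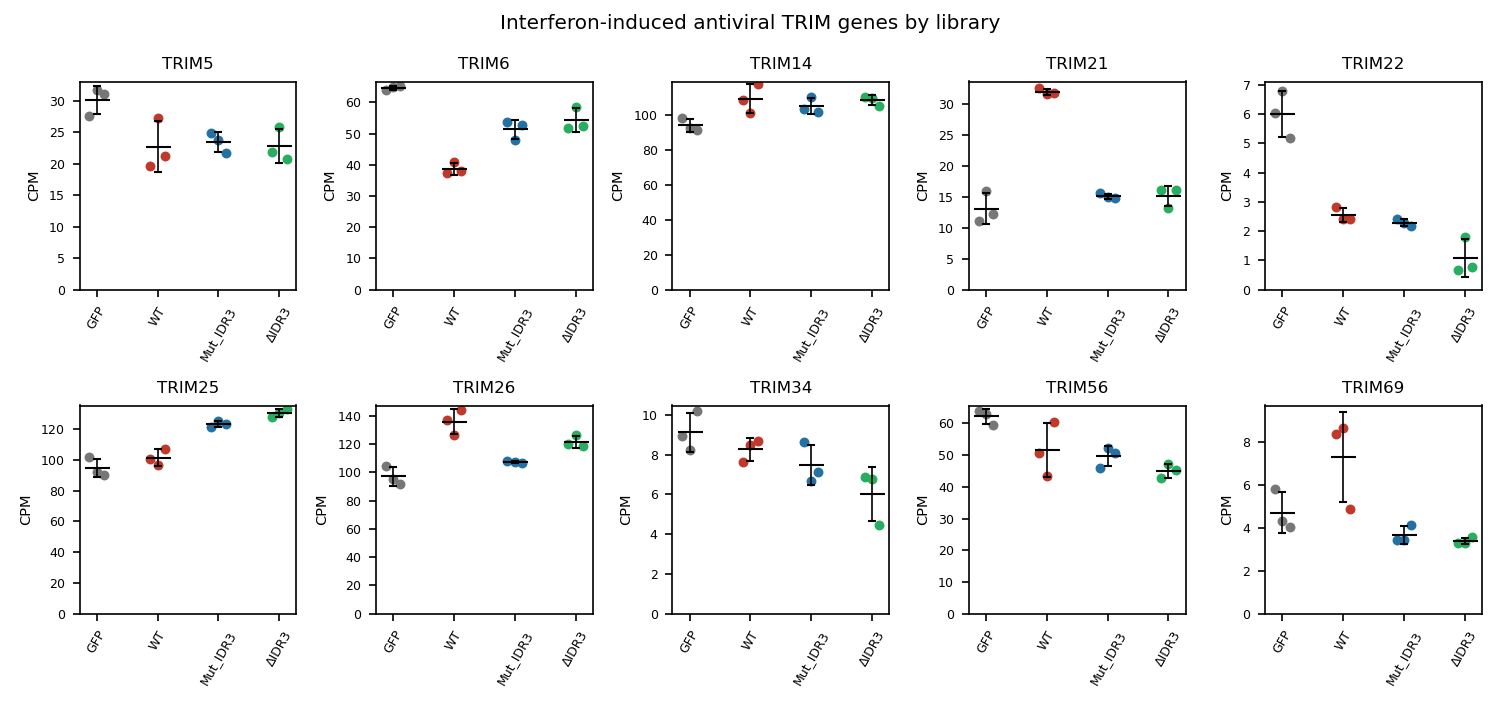
Points give CPM in each library for 10 interferon-induced TRIM genes, with a bar for the mean and its SD over 3 libraries. TRIM21 is highest in WT, TRIM25 in both mutants, and TRIM22 and TRIM6 in GFP.

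As a list, the interferon-induced antiviral members had 10 genes among the members, and its other gene, TRIM38, was under the limit at 0.37 CPM. With WT, 5 rose (TRIM14, TRIM21, TRIM25, TRIM26 and TRIM69), 3 fell (TRIM5, TRIM6 and TRIM22) and 2 did not pass (TRIM34 and TRIM56), with a median log2 change of 0.07, where 54.9% of all tested genes were called. In Mut_IDR3 against GFP TRIM25 rose and TRIM6, TRIM22 and TRIM56 fell, with a median of -0.29, where 21.1% of all tested genes were called. In ΔIDR3 against GFP 3 rose (TRIM14, TRIM25 and TRIM26) and 5 fell (TRIM5, TRIM6, TRIM22, TRIM34 and TRIM56), with a median of -0.32, where 29% of all tested genes were called. TRIM56, a ligase of the antiviral DNA and RNA responses, changed by -0.31 ± 0.10 in Mut_IDR3 and -0.45 ± 0.10 in ΔIDR3 (adjusted p = 0.0436 and 0.00367). Its Mut_IDR3 call was lost without any of 7 libraries (all 3 of GFP, all 3 of Mut_IDR3 and WT replicate 1), with adjusted p of 0.0547 to 0.127, and with the replicate block (adjusted p = 0.057). The call of TRIM14 in ΔIDR3 was lost without GFP replicate 2 or 3 or ΔIDR3 replicate 1 or 2 (adjusted p of 0.0591 to 0.103) and with the GC trend removed (0.12, adjusted p = 0.0833).

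The chromatin members are TRIM24, TRIM28, TRIM33 and TRIM66. TRIM28 is the corepressor that KRAB zinc-finger proteins recruit to silence retroelements, and lies on chromosome 19 at 58544091 to 58550722. It had 419.8, 404.9 and 392.2 CPM in GFP, 653, 579 and 662 in WT, 616, 603 and 595 in Mut_IDR3 and 639, 649 and 631 in ΔIDR3. All 9 libraries with a construct lay above all 3 of GFP, and they overlapped each other except that ΔIDR3 lay above Mut_IDR3. TRIM28 rose by 0.73 ± 0.05 in WT, 0.59 ± 0.05 in Mut_IDR3 and 0.67 ± 0.05 in ΔIDR3 (adjusted p = 4.95e-08, 1.98e-05 and 7.87e-07). With the GC trend removed the WT rise was 0.36 (adjusted p = 5.16e-07). Against WT the differences were -0.13 ± 0.05 and -0.06 ± 0.05 (adjusted p = 0.0598 and 0.386). They turned sign and were called with the GC trend removed, at 0.10 and 0.26 (adjusted p = 0.0241 and 1.23e-05).

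TRIM33, a ligase and chromatin reader of TGF-beta signalling, moved the other way and only WT was called against GFP. It had 42.3, 39.0 and 46.6 CPM in GFP, 17.5, 20.5 and 25.3 in WT, 38.7, 31.1 and 37.4 in Mut_IDR3 and 36.0, 48.0 and 45.8 in ΔIDR3. The WT libraries lay below all others. The fall with WT was -0.92 ± 0.13 (adjusted p = 3.45e-05), and -0.39 with the GC trend removed (adjusted p = 0.0105). Mut_IDR3 and ΔIDR3 were above WT by 0.69 ± 0.13 and 0.95 ± 0.13 (adjusted p = 0.00079 and 3.07e-05), or 0.39 and 0.57 with the GC trend removed, both still called.

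TRIM66, a chromatin reader without a RING, had 11.1, 10.4 and 10.2 CPM in GFP, 4.13, 4.55 and 5.73 in WT, 7.50, 7.66 and 7.09 in Mut_IDR3 and 7.50, 8.28 and 7.87 in ΔIDR3. WT was lowest and the mutants lay between WT and GFP. The change was -1.05 ± 0.13 in WT, -0.49 ± 0.13 in Mut_IDR3 and -0.41 ± 0.13 in ΔIDR3 (adjusted p = 1.03e-05, 0.0167 and 0.0289). The Mut_IDR3 call was lost without GFP replicate 1 or Mut_IDR3 replicate 3 (adjusted p of 0.0523 to 0.0602). The ΔIDR3 call was lost without GFP replicate 1 or 2 or ΔIDR3 replicate 1 or 3 (adjusted p of 0.0505 to 0.0772). TRIM24, a histone reader and nuclear-receptor cofactor, ranged from 15.3 to 21.7 CPM over all 12 libraries and was called in no comparison, with changes against GFP of -0.10 ± 0.12, -0.05 ± 0.12 and 0.08 ± 0.11.

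**Figure D4:**
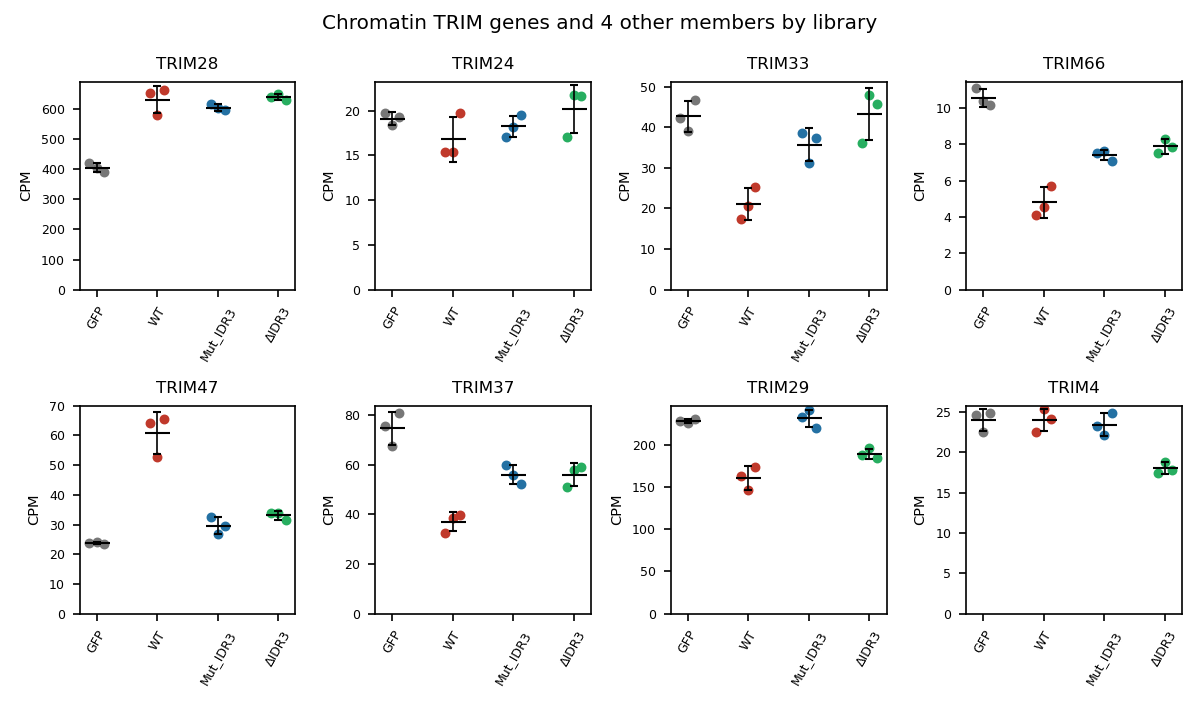
Points give CPM in each library for the 4 chromatin TRIM genes and for TRIM47, TRIM37, TRIM29 and TRIM4, with a bar for the mean and its SD over 3 libraries. TRIM28 is higher with every construct, TRIM33 is lowest in WT, and TRIM4 is lowest in ΔIDR3.

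TRIM37, a ligase of centrosome assembly with a MATH domain, had 75.7, 67.6 and 80.9 CPM in GFP, 32.7, 38.6 and 39.9 in WT, 59.8, 55.9 and 52.1 in Mut_IDR3 and 50.9, 58.0 and 59.2 in ΔIDR3. No WT library overlapped another group. The fall was -0.92 ± 0.09 in WT, -0.40 ± 0.09 in Mut_IDR3 and -0.41 ± 0.09 in ΔIDR3 (adjusted p = 7.19e-07, 0.00636 and 0.00327). Against WT both mutants were 0.52 ± 0.09 higher (adjusted p = 0.000269 and 0.00019), the ΔIDR3 value being 0.34 with the GC trend removed. TRIM23, which ends in an ARF-type GTPase, had 7.04, 6.27 and 9.49 CPM in GFP, 3.44, 3.21 and 3.93 in WT, 4.70, 6.17 and 5.55 in Mut_IDR3 and 5.17, 6.31 and 7.68 in ΔIDR3. Its WT libraries lay below all others. The fall of -1.02 ± 0.19 (adjusted p = 0.000342) became -0.39 with the GC trend removed (adjusted p = 0.0938).

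TRIM3, an NHL-repeat ligase, had 9.83, 9.50 and 9.61 CPM in GFP, 13.3, 12.5 and 16.6 in WT, 12.5, 10.7 and 11.2 in Mut_IDR3 and 11.1, 11.5 and 12.1 in ΔIDR3. WT lay above GFP and ΔIDR3 and overlapped Mut_IDR3. The rise with WT was 0.64 ± 0.12 (adjusted p = 0.000258). Both mutants were called below WT, at -0.37 ± 0.12 each (adjusted p = 0.0165 and 0.0151). These became -0.23 and -0.23 without WT replicate 3 (adjusted p = 0.105 and 0.102), and both calls also ended with the GC trend removed (adjusted p = 0.0895 and 0.101). The Mut_IDR3 call was lost without Mut_IDR3 replicate 2 or 3 as well (adjusted p from 0.0527).

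TRIM16, a RING-less member that takes part in the clearance of damaged lysosomes, had 158, 175 and 174 CPM in GFP, 238, 221 and 231 in WT, 168, 186 and 186 in Mut_IDR3 and 199, 206 and 202 in ΔIDR3. WT was highest without overlap. The rise with WT was 0.53 ± 0.06 (adjusted p = 2.36e-06), and 0.27 with the GC trend removed (adjusted p = 0.000441). Mut_IDR3 was not called against GFP at 0.11 ± 0.06 (adjusted p = 0.194), and ΔIDR3 was 0.27 ± 0.06 above GFP (adjusted p = 0.00308). TRIM16L, a near copy whose reads could be shared with TRIM16, was not called against GFP, with changes of -0.09 ± 0.05, -0.03 ± 0.05 and -0.07 ± 0.05.

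Against GFP, 6 members rose and 5 fell in Mut_IDR3 (26.8% called, where 21.1% of all tested genes were, 11.2% higher and 9.85% lower), and 11 rose and 10 fell in ΔIDR3 (51.2%, where 29% were, 15.6% higher and 13.4% lower). The members' medians were 0.04 and 0.03, beside -0.01 and -0.02 over all tested genes. The rises in Mut_IDR3 were TRIM11, TRIM25, TRIM27, TRIM28, TRIM32 and TRIM47, and the falls TRIM6, TRIM22, TRIM37, TRIM56 and TRIM66. The count of rises there was 2 without GFP replicate 3 and 3 without Mut_IDR3 replicate 2, and that of falls 3 without Mut_IDR3 replicate 3 and 9 in a fit of only the 2 groups. In ΔIDR3 the rises were TRIM11, TRIM14, TRIM16, TRIM25, TRIM26, TRIM27, TRIM28, TRIM32, TRIM35, TRIM47 and TRIM62, and the falls TRIM4, TRIM5, TRIM6, TRIM22, TRIM29, TRIM34, TRIM37, TRIM52, TRIM56 and TRIM66. Calls that ended without single libraries, besides those above, were TRIM11, TRIM27 and TRIM32 in Mut_IDR3 (4, 4 and 3 libraries) and TRIM11 and TRIM35 in ΔIDR3 (4 libraries and 1). Removing the GC trend ended the calls of TRIM11 and TRIM47 in Mut_IDR3 and of TRIM14 and TRIM62 in ΔIDR3. All 3 comparisons with GFP share the GFP libraries. TRIM52, a nuclear member with little beyond its RING and B-box, had 29.9, 30.6 and 32.5 CPM in GFP, 13.9, 20.1 and 21.2 in WT, 28.0, 20.04 and 24.7 in Mut_IDR3 and 17.6, 21.9 and 22.1 in ΔIDR3. Every other library lay below GFP. Its changes were -0.66 ± 0.15, -0.34 ± 0.15 and -0.59 ± 0.15 (adjusted p = 0.00129, 0.113 and 0.00778).

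**Figure D5:**
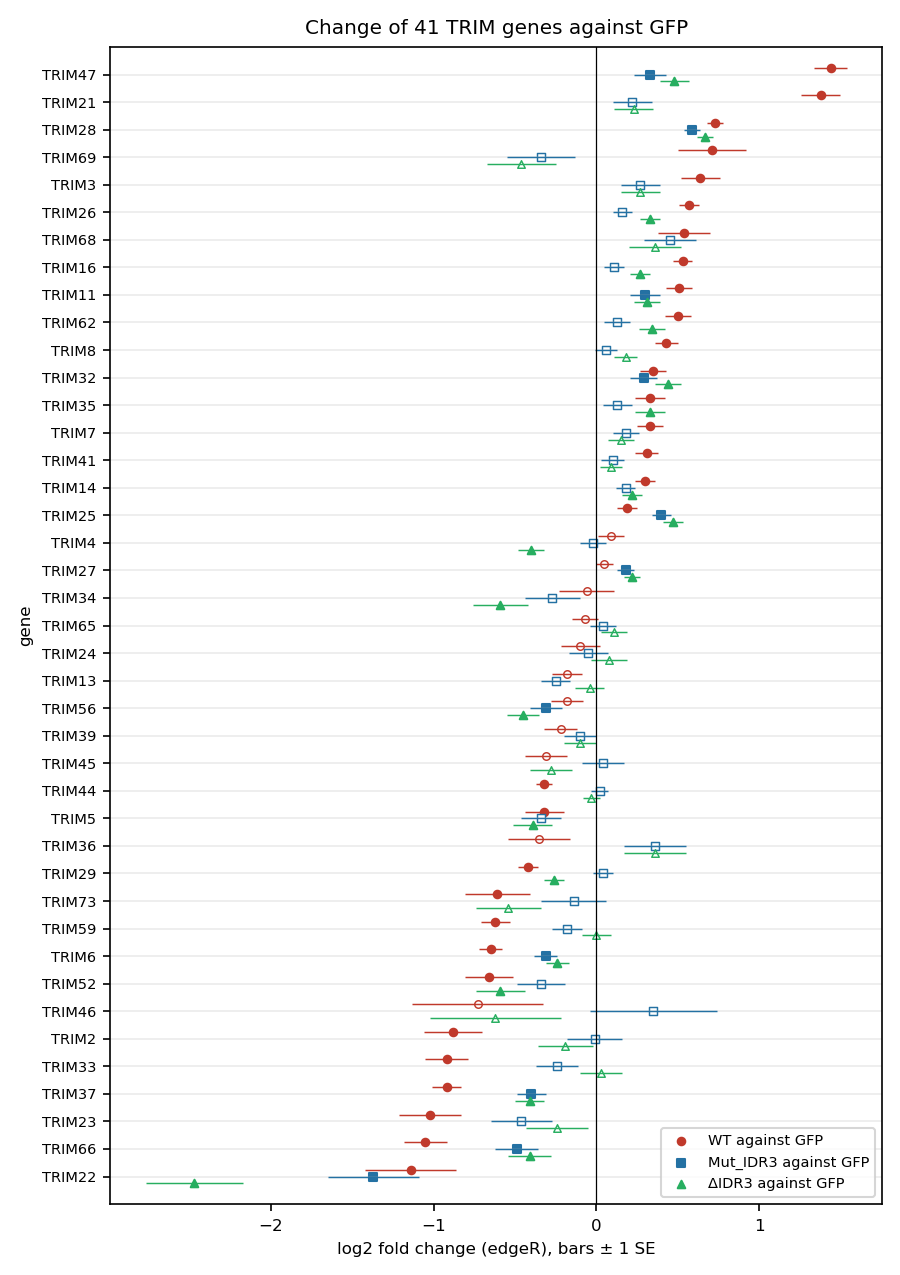
Points give the edgeR log2 fold change against GFP with 1 SE for 41 TRIM genes in WT (circles), Mut_IDR3 (squares) and ΔIDR3 (triangles), filled where called. TRIM22 in ΔIDR3 lies farthest from 0 at -2.47, and TRIM28 is filled near the same place in all 3 comparisons.

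Against WT, 14 members were higher and 9 lower in Mut_IDR3 (56.1% called, where 44.1% of all tested genes were, 23.2% higher and 20.9% lower), with a median of -0.06 beside 0.03 over all genes. In ΔIDR3 12 were higher and 12 lower (58.5%, where 52.3% were, 27.2% higher and 25% lower), with a median of 0.03 beside 0.03. Higher in Mut_IDR3 were TRIM2, TRIM6, TRIM23, TRIM25, TRIM27, TRIM29, TRIM33, TRIM36, TRIM37, TRIM44, TRIM45, TRIM46, TRIM59 and TRIM66. Lower there were TRIM3, TRIM8, TRIM16, TRIM21, TRIM26, TRIM41, TRIM47, TRIM62 and TRIM69, and the count of lower members was 15 without WT replicate 2. In ΔIDR3 TRIM45 and TRIM46 were not called, TRIM62 was not called, and TRIM4, TRIM22, TRIM34 and TRIM56 were lower as well. Calls in Mut_IDR3 that ended without single libraries included TRIM27 (11 libraries), TRIM45 (10), TRIM46 (8), TRIM23 (4) and TRIM41 (4), and those in ΔIDR3 TRIM29 (9), TRIM56 (4), TRIM41 (3) and TRIM27 (2). Of the 23 calls in Mut_IDR3, 8 ended with the GC trend removed (TRIM3, TRIM8, TRIM23, TRIM27, TRIM36, TRIM41, TRIM59 and TRIM62), and TRIM28, TRIM65 and TRIM73 were called higher and TRIM13 lower. In ΔIDR3 10 of the 24 calls ended in that fit (TRIM2, TRIM3, TRIM8, TRIM16, TRIM23, TRIM26, TRIM36, TRIM44, TRIM56 and TRIM59), and TRIM28, TRIM39 and TRIM65 were called higher and TRIM13 lower. TRIM44, which lacks a RING, stood at 204 to 215 CPM in GFP, 152 to 163 in WT, 206 to 218 in Mut_IDR3 and 202 to 206 in ΔIDR3. The WT libraries lay below all others, by -0.32 ± 0.05 against GFP (adjusted p = 2.94e-05), which became -0.05 with the GC trend removed (adjusted p = 0.376). TRIM59, of the lowest GC content at 34.4%, fell by 0.62 (SE 0.09) with WT (adjusted p = 4.25e-05), and its change was -0.01 with the GC trend removed (adjusted p = 0.939).

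The mutants differed from each other in 3 members, TRIM22, TRIM4 and TRIM29, all higher in Mut_IDR3 (7.32% called, where 10.8% of all tested genes were, 5.54% higher and 5.24% lower, with a median of -0.01 in both). None was called lower by edgeR on all 4 groups, DESeq2 or limma-voom, while at an unadjusted p under 0.05 edgeR gave 5 higher and 5 lower. An edgeR fit of only the 2 groups called 1 member lower. With the GC trend removed edgeR called 4 lower, TRIM8 (-0.21), TRIM16 (-0.19), TRIM26 (-0.24) and TRIM28 (-0.16), with adjusted p = 0.0303, 0.021, 0.0034 and 0.00482. Of all genes called between the mutants 51.4% were higher in Mut_IDR3, against 65.3% with upper-quartile scaling, 48.5% with limma-voom and 46.2% with the GC trend removed. TRIM22 was 1.09 ± 0.30 higher (adjusted p = 0.0308), between its 2 lowest groups. That call was lost without any Mut_IDR3 replicate or without ΔIDR3 replicate 1 or 3 (adjusted p of 0.0683 to 0.116) and in a fit of only the 2 groups (adjusted p = 0.0673), while without ΔIDR3 replicate 2 it was 1.67 (adjusted p = 0.00126). TRIM4, a ligase linked to RIG-I signalling, had 24.6, 22.5 and 24.9 CPM in GFP, 22.5, 25.3 and 24.1 in WT, 23.3, 22.1 and 24.9 in Mut_IDR3 and 17.5, 18.8 and 17.8 in ΔIDR3. The ΔIDR3 libraries lay below the other 9, which overlapped. TRIM4 was lower in ΔIDR3 by -0.40 ± 0.08 against GFP and -0.49 ± 0.08 against WT (adjusted p = 0.00159 and 0.000109), and 0.39 ± 0.08 higher in Mut_IDR3 than in ΔIDR3 (adjusted p = 0.00693).

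TRIM29, a RING-less member abundant in squamous epithelium, had 228, 226 and 231 CPM in GFP, 163, 146 and 173 in WT, 233, 241 and 220 in Mut_IDR3 and 188, 196 and 185 in ΔIDR3. GFP and Mut_IDR3 overlapped, ΔIDR3 lay below both and WT below ΔIDR3. The change against GFP was -0.42 ± 0.06 in WT, 0.04 ± 0.06 in Mut_IDR3 and -0.26 ± 0.06 in ΔIDR3 (adjusted p = 3.8e-05, 0.707 and 0.00544). The WT fall was -0.77 with the GC trend removed. Mut_IDR3 was 0.30 ± 0.06 above ΔIDR3 (adjusted p = 0.00693) and 0.46 ± 0.06 above WT (adjusted p = 3.23e-05). The summed squamous markers, whose part in this was not tested, were 5364 to 5584 CPM in GFP, 6607 to 7573 in WT, 5372 to 5517 in Mut_IDR3 and 4602 to 4760 in ΔIDR3. The markers went both ways with WT, with 5 of 10 higher, such as KRT14 (1.83) and KRT17 (1.61), and 4 lower, such as SOX2 (-5.49) and TP63 (-0.36 on the log2 scale).

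Motifs were set beside the calls. Among interferon-list members with a window, the ISRE match was in 4 of 5 that rose with WT (TRIM14, TRIM21, TRIM26 and TRIM69), in 1 of 2 that fell (TRIM5) and in 1 of 2 not called (TRIM34). Among the others it was in 1 of 8 that rose and 2 of 9 that fell. The AP-2 match was in 9 of 9 other members that fell (TRIM2, TRIM23, TRIM33, TRIM37, TRIM44, TRIM52, TRIM59, TRIM66 and TRIM73) and in 4 of 8 that rose (TRIM7, TRIM32, TRIM47 and TRIM62). It was in 3 of 4 other members not called, and in the interferon list in 2 of 5 that rose, 1 of 2 that fell and 1 of 2 not called, beside 38.4% of all tested genes. These counts are a description, and members with more windows have more chances of a match. They also depend on the setting. With the GC trend removed, the rises of TRIM7, TRIM14 and TRIM62 and the falls of TRIM5, TRIM23, TRIM44 and TRIM59 were not called. In that fit TRIM39, TRIM56 and TRIM65, which hold the AP-2 match, and TRIM46, which does not, were called lower.

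Other genes of the pathway were read from lists. Of 6 tested family members with other names, PML, the organiser of nuclear bodies, rose by 1.28 ± 0.07 with WT (adjusted p = 2.48e-09) and was lower than WT by -0.85 ± 0.07 in Mut_IDR3 and -1.06 ± 0.07 in ΔIDR3. Both mutants were still called above GFP, by 0.43 ± 0.07 and 0.22 ± 0.07 (adjusted p = 0.00107 and 0.0267). The latter call was lost without GFP replicate 2 or 3 or ΔIDR3 replicate 1 or 3 (adjusted p of 0.0659 to 0.144). The microtubule-binding ligases MID1 and MID2 fell with WT by 0.38 (SE 0.07) and 0.44 (SE 0.14) (adjusted p = 0.000393 and 0.0161). With the GC trend removed MID1 was -0.13 (adjusted p = 0.163) and MID2 -0.69, and the call of MID2 was lost without GFP replicate 1 or 3 or WT replicate 3 (adjusted p of 0.0547 to 0.0804). The other 3 did not pass, which is 50% called with WT, where 54.9% of all tested genes were.

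Of the 16 E1 and E2 enzymes, which activate ubiquitin and hand it to the ligases, 7 rose, 4 fell and 5 did not pass with WT, and their median was 0. This is 68.8% called, where 54.9% of all tested genes were. The E1 UBA1 rose by 0.65 ± 0.06 (adjusted p = 5.2e-07), or 0.28 with the GC trend removed. Of the 6 genes of ISG15 conjugation and removal, a ubiquitin-like pathway in which TRIM25 is a ligase, 5 rose with WT and 1 did not pass. The rises include USP18, whose product removes ISG15. All 6 were lower than WT in each mutant. Of all tested genes, 27.7% rose with WT, and 20.9% were lower than WT in Mut_IDR3 and 25% in ΔIDR3. HERC5, the main ligase of ISG15, had 0.475, 0.847 and 0.876 CPM in GFP and 31.2, 38.6 and 35.4 in WT, a change of 5.65 ± 0.32 (adjusted p = 2.78e-09).

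Of 14 tested genes of the RIG-I pathway and of DNA sensing (CGAS and TMEM173), 6 rose, 5 fell and 3 did not pass with WT. This is 78.6% called, where 54.9% of all tested genes were. The rises were DDX58, IFIH1, TMEM173, IRF3, IKBKE and IKBKG, and the falls TBK1, TAB2, TAB3, CGAS and MAVS. With the GC trend removed the fall of TAB3 was not called (-0.14, adjusted p = 0.104). The sensor gene DDX58, whose product TRIM25 ubiquitinates, had 3.77, 4.92 and 3.48 CPM in GFP, 17.7, 20.3 and 20.5 in WT, 2.54, 2.22 and 2.24 in Mut_IDR3 and 1.99, 2.69 and 2.46 in ΔIDR3. It was highest in WT and lowest in the mutants, where TRIM25 was highest. The rise with WT was 2.35 ± 0.16 (adjusted p = 1.81e-08), and the mutants were below GFP by -0.78 ± 0.16 and -0.76 ± 0.16 (adjusted p = 0.00476 and 0.00284).

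Of 10 genes of the TRIM28 repressor complex, MBD1 rose with WT, 4 fell and 5 did not pass. This is 50% called, where 54.9% of all tested genes were. CBX5, the heterochromatin protein that binds TRIM28, had 128, 124 and 129 CPM in GFP and 53.7, 57.5 and 58.9 in WT, against 120 to 129 in Mut_IDR3 and 125 to 137 in ΔIDR3. Only WT lay apart, by -1.08 ± 0.05 against GFP (adjusted p = 7.53e-10). Its relative CBX3 fell by 0.85 (SE 0.08) with WT (adjusted p = 3.13e-07), or -0.36 with the GC trend removed. HDAC2, a histone deacetylase, fell by 0.68 (SE 0.08) (adjusted p = 2.38e-06), which became -0.10 with the GC trend removed (adjusted p = 0.135).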

How the data were processed

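RNA of 12 KYSE150 libraries was measured. The counts were used as deposited by the authors. The submitters' processing notes name HISAT2, StringTie, Trim Galore and GRCh38. The counting program, strand setting and annotation are not given in the sources used here. CPM in the text is the raw count over the column total, and overlaps of groups were judged on it. Fold changes come from edgeR 4.0.16 in R 4.3.3: filterByExpr (14792 genes), TMM scaling and quasi-likelihood F tests from 1 fit to the 4 groups (residual df 8), with Benjamini-Hochberg adjustment over every tested gene, called at an adjusted p under 0.05. SE is the absolute log2 change over the square root of F. Coordinates, lengths and GC content are from GENCODE 29. The members and lists were chosen with earlier results of these data known. Values in every library are given for the 5 largest rises and falls in WT, the 3 in each direction in the other comparisons with GFP and between mutants, the chromosome 11 cluster, the chromatin members and the 3 highest per kb, plus others as examples. Alternatives were median-ratio (RLE) and upper-quartile scaling, 2 filters, DESeq2 1.42.0, limma-voom 3.58.1, only the groups compared, the replicate block, removal of a GC trend (20 bins) and each library left out. On simulated counts over 14792 genes for WT against GFP, edgeR called 66 of 67 genes changed 1.5-fold and 12 of 14592 unchanged ones. The simulation gave every gene the same spread, changed few genes and took these only from genes of higher level. Its rates therefore do not carry over to low members such as TRIM22 and TRIM46, or to genes that vary more between libraries. Some results on single genes are not reported here.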

Additional observations from a re-analysis of the deposited data

How the results depend on the processing

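The 12 counts of members called higher or lower were recomputed in 9 other settings and without each of 12 libraries. Of 108 values in the other settings 104 were within 1.5 times the count reported. With the GC trend removed, 11 members were higher in WT against GFP and 4 were lower in Mut_IDR3 against ΔIDR3. In fits of only the 2 groups compared, 9 were lower in Mut_IDR3 against GFP and 1 in Mut_IDR3 against ΔIDR3. Leaving out single libraries gave 2 to 8 higher and 3 to 7 lower members in Mut_IDR3 against GFP, 7 to 15 lower in Mut_IDR3 against WT (15 without WT replicate 2) and 0 to 1 lower in Mut_IDR3 against ΔIDR3 (1 without WT replicate 2). The other counts stayed within 1.5 times.

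Of the called changes of single members and related genes compared over settings, 6 turned sign, all with the GC trend removed: TRIM25 in WT against GFP to -0.05, UBE2K there to 0.09, TRIM26 in ΔIDR3 against WT to 0.01, TRIM8 there to 0.06, and TAB3 to -0.08 in Mut_IDR3 against WT and to -0.16 in ΔIDR3 against WT. The cause was not tested.

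Replicate numbers did not pair the libraries: deviations from the group means of same-numbered libraries correlated at -0.07 to 0.08 over 18 pairs, none over 0.1, and 3 of 12 libraries correlated best with their own number. With the replicate block 17 members were higher and 13 lower in WT against GFP, 6 and 5 in Mut_IDR3 against GFP, 11 and 10 in ΔIDR3 against GFP, 12 and 9 in Mut_IDR3 against WT, 11 and 12 in ΔIDR3 against WT, and 3 and 0 in Mut_IDR3 against ΔIDR3.

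At 3 libraries a group, changes of the low members TRIM22, TRIM46 and TRIM69 carried SEs of 0.21 to 0.41 on the log2 scale, against 0.05 for TRIM27, TRIM28 and TRIM44.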
